A study of Homo sapiens with 21 samples.

Results

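Cadherins are membrane proteins that hold neighbouring cells together through calcium-dependent contacts, and protocadherins are their largest relatives, most of them used by neurons. The genes described here are the protein-coding genes whose symbol begins with CDH and a digit or with PCDH in the deposited count table. There were 89 of them among 62656 genes. They comprised 18 classical cadherins (5 of type I and 13 of type II), 5 other cadherins, 13 solitary protocadherins and 53 clustered protocadherins. A further 24 genes with matching symbols were left out because they are not protein-coding, namely 12 long non-coding RNAs, 7 pseudogenes and 5 transcribed pseudogenes.

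RNA came from SH-SY5Y, an established human neuroblastoma line of wild-type genotype. The cells had gone through 11 days of differentiation toward a neuron-like state in every group. They then received 1 of 6 per- and polyfluoroalkyl substances (PFAS) at 30 µM for 24 h: PFOA, PFOS, PFDA, PFDS, 8:2 FTS or 8:2 FTOH, with 1% methanol in the treatment solutions, or served as Control. The methanol content of the Control dishes is not given in the sources used here. PFOA and PFDA are a shorter and a longer perfluoroalkyl carboxylic acid, PFOS and PFDS the shorter and longer sulfonic acid, and the 8:2 compounds are a fluorotelomer sulfonic acid (FTS) and a fluorotelomer alcohol (FTOH). The series asked about neurotoxic effects at concentrations below overt toxicity. There were 3 libraries per group, 21 in all, of ribosome-depleted total RNA. The labels do not say that the 3 libraries of a group came from separate cultures on separate days, so the p-values below measure the spread between these libraries, which may be technical. A single line was used, so nothing here speaks to variation between neuroblastoma lines.

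Classical cadherins bind the same cadherin on the next cell and are tied inside the cell to catenins and actin. N-cadherin, encoded by CDH2, is the classical cadherin of neurons and of most neuroblastoma cells. Solitary protocadherins of the delta-1 and delta-2 kinds sort axons and shape synapses, and some of the delta-2 kind recruit the WAVE actin regulator. The clustered protocadherins lie in 3 tandem arrays, alpha, beta and gamma. Each alpha and gamma gene supplies its own first exon, which is spliced to constant exons shared by the array. A neuron switches on only some of these promoters, through CTCF and cohesin, and thereby carries a molecular label by which its own branches recognise each other.

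The 53 clustered genes all lie on chromosome 5 of hg38, from 140786136 to 141512977, a span of 727 kb. With PCDH1, PCDH12 and 5 type II cadherin genes they make chromosome 5 the home of 60 of the 89 genes. CDH11 is among 8 of the genes on chromosome 16. CDH2, on the minus strand from 27932879 to 28177946, and CDH20, on the plus strand from 61333430 to 61555779, are both on chromosome 18.

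Promoter sequence from RefSeq (GRCh38.p14) was matched by symbol for 70 of the 89 genes. The 250 bases before the annotated start are shown for CDH20, which was lower over the compounds and with PFDS. The promoters of CDH2 and CDH11 were not used here. Capitals mark the CCAAT box, searched as CCAAT on both strands. The region is chr18:61333180-61333429 on the plus strand.
CDH20: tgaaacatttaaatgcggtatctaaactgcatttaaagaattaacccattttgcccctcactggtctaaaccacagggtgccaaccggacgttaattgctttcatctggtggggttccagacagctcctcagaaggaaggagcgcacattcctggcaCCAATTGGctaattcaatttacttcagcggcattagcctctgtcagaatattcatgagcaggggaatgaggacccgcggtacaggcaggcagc

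In CDH20 the match on one strand overlaps the match on the other. A CCAAT box occurred in 32% of the 35116 promoters of the same length. CAGGTG, the E-box form bound by SNAI and ZEB factors, was searched on both strands, did not occur in this window and occurred in 17.5% of all promoters.

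Promoter words shared within each array of clustered genes were picked from these sequences. For each array, the 10-base word that holds CGCT, the core known for clustered protocadherin promoters, and lies in the most genes was taken and searched on both strands. Ties went to the word that was rarer over all promoters. Wide sharing and rarity are therefore partly set by the choice of word. The shares of all promoters below include the promoters of the members themselves. TGATGTCGCT occurred in 8 of the 13 alpha genes with a promoter, and in 0.0313% of all promoters. GGTGGCGCTG occurred in 11 of 14 beta genes and in 0.225% of all promoters, and GCGCCGCTGT in 9 of 20 gamma genes and in 0.114%. The windows below are those of the 3 carriers with the highest level in each array, with the word in capitals. All 9 lie on the plus strand of chromosome 5. They span 140875239-140875278 (PCDHA12), 140841125-140841164 (PCDHA8), 140794776-140794815 (PCDHA2), 141100389-141100428 (PCDHB3), 141121719-141121758 (PCDHB4), 141192295-141192334 (PCDHB10), 141382646-141382685 (PCDHGA7), 141387614-141387653 (PCDHGB4) and 141402711-141402750 (PCDHGA9).
PCDHA12: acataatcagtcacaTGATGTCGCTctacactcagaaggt
PCDHA8: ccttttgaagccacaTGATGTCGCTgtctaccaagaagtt
PCDHA2: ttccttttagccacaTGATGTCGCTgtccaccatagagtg
PCDHB3: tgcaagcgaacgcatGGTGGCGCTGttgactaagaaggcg
PCDHB4: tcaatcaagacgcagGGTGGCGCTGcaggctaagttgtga
PCDHB10: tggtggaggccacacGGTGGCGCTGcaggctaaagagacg
PCDHGA7: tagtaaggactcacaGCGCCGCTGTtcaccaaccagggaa
PCDHGB4: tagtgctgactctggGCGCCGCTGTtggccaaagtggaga
PCDHGA9: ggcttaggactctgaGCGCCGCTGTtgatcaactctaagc

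In the genes that carry it, the word began between 44 and 87 bases before the start in the alpha array, between 16 and 84 in the beta array and between 44 and 99 in the gamma array. A match describes these letters only and is not a measured binding site. The PCDHB3 window overlaps 2 annotated exons, while the windows of the other clustered genes shown overlap none.

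Libraries held between 7680024 and 30429746 counts, with a median of 14633793, and the 3 Control libraries lay between 22179910 and 24905803. The members together took 0.157% to 0.184% of the counts of a library. The mitochondrial share stood apart in 8:2 FTOH replicate 3 (6.11%), PFDA replicate 2 (5.4%), PFDS replicate 1 (5.24%) and Control replicate 3 (6.33%), and ran between 3.37% and 4.37% in the other 17 libraries. Markers of the labelled cell type were present: all 13 adrenergic neuroblastoma genes and all 9 neuronal genes on fixed lists passed the filter on low counts. All 6 Schwann or glial genes and 11 of 13 mesenchymal neuroblastoma genes passed it too, so passing does not tell these cell types apart. The tyrosine hydroxylase gene TH was near the floor at a mean of 0.899 CPM, the count scaled to library size. Of 6 epithelial genes 4 averaged under 1 CPM, while CLDN4 averaged 8.66 and EPCAM 2.37 CPM. Of 5 endothelial genes 3 averaged under 1 CPM. The 6 Schwann or glial genes summed to 10.1 to 16.3 CPM in the compound libraries and 11.5 to 13.2 CPM in Control.

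Of the 89 members, 70 passed the filter on low counts and were tested. The other 19 included E-cadherin (CDH1, the epithelial cadherin), VE-cadherin (CDH5, of vessel walls), the epilepsy gene PCDH19, and the type II cadherins CDH6, CDH7, CDH9, CDH10, CDH12, CDH18 and CDH19. Of these 19, 14 had between 1 and 158 counts summed over all libraries and 5 had none: PCDHA1, PCDH11X, CDH13 (T-cadherin), CDH9 and CDH10. A count of 0 in every library allows up to 3 counts in 381471854, or 0.00786 CPM. PCDHA1 could not have been measured, because only 7 of its exon bases are not shared with another gene of the array and reads overlapping several genes were not counted.

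Levels are compared between genes as CPM per kilobase of exon not shared with another gene, averaged over the 21 libraries. CDH2 was the highest member at 40.04 CPM per kb (range over libraries 34.3 to 49.2). It supplied 98.2% of the CPM per kb summed over type I cadherins. P-cadherin CDH3, muscle cadherin CDH15 and retinal cadherin CDH4 averaged 0.316, 0.252 and 0.154 CPM per kb. Among type II cadherins CDH11, best known from mesenchymal and bone-forming cells, averaged 13.9 CPM per kb, CDH24 7.73 and CDH20 1.64. They supplied 58.2%, 32.6% and 6.89% of the type II sum on the same scale. E-cadherin averaged 0.0110 and VE-cadherin 0.00956 CPM per kb.

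Among solitary protocadherins the delta-1 genes PCDH9 and PCDH1 averaged 11.1 and 7.72 CPM per kb, and the delta-2 genes PCDH17 and PCDH18 averaged 8.76 and 6.32. The remaining tested ones were below 1 CPM per kb: PCDH12 of endothelial cells at 0.908, PCDH7 at 0.216, PCDH15 of the inner-ear tip link at 0.108 and PCDH10 at 0.0449. PCDH8, an activity-regulated delta-2 gene, and PCDH20 were not tested. PCDH20 had 7 counts in all, over the 8.74% of its exon bases that are not shared.

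Clustered genes nearly all passed the filter on low counts, at uneven levels, which does not show that each gene's own promoter was active. All 22 gamma genes, 15 of 16 beta genes and 14 of 15 alpha genes passed the filter. In the gamma array PCDHGB7 at 19.3, PCDHGC3 at 18.9, PCDHGA7 at 11.9 and PCDHGC4 at 10.4 CPM per kb stood above the rest, of which the next was PCDHGB2 at 2.71. On this scale they held 22.6%, 22.2%, 13.98% and 12.3% of the array. In the beta array PCDHB3 led with 10.2 CPM per kb and 20.4% of the array, ahead of PCDHB6 at 7.27 and PCDHB4 at 5.48. In the alpha array the C-type gene PCDHAC2 led with 9.66 CPM per kb and 24.9%, followed by PCDHAC1 at 4.71 and PCDHA11 at 3.75. A bulk library cannot show how many isoforms a single cell carries.

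**Figure D1:**
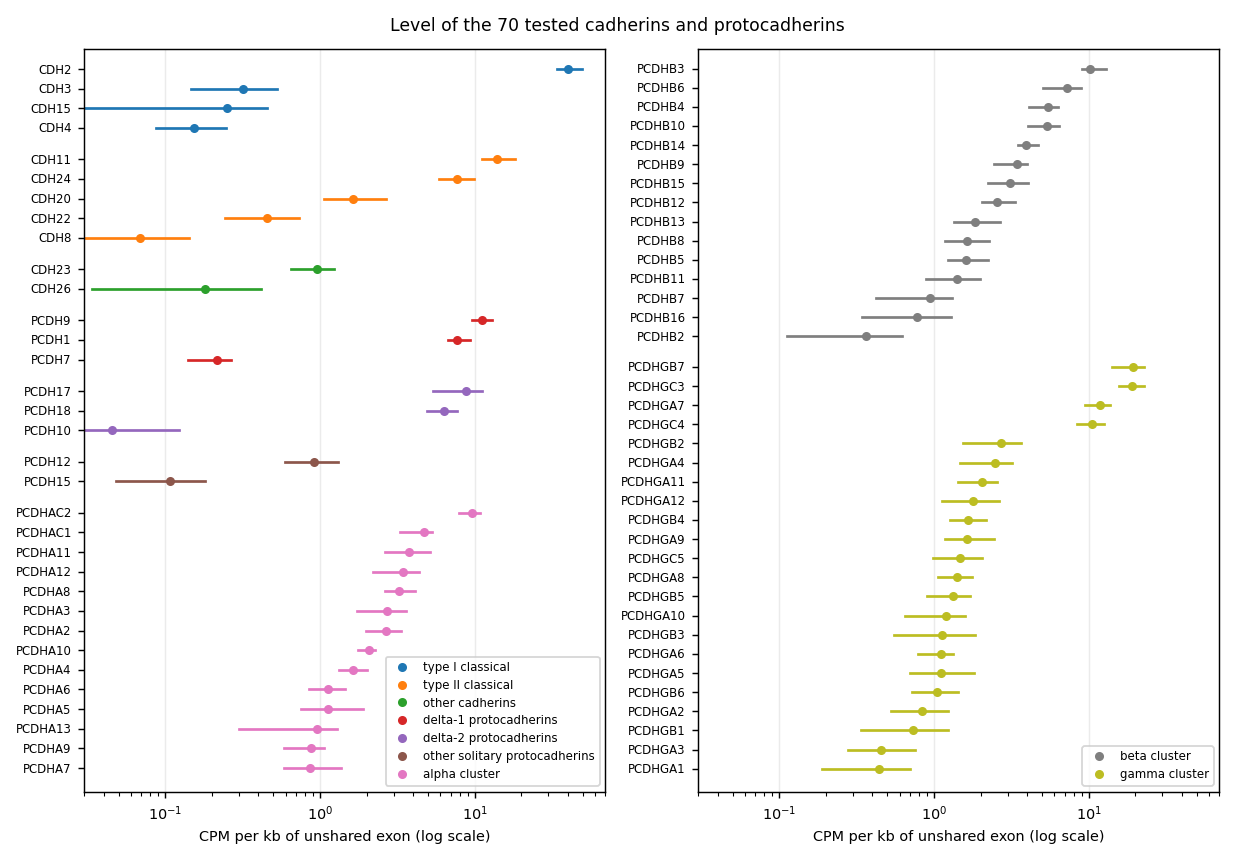
CPM per kilobase of unshared exon, on a log axis, for the 70 tested members grouped by kind. Points are means over 21 libraries and lines run from the lowest to the highest library, cut at the left edge of the axis where the lowest library was below it. CDH2 is highest at 40.04, and 4 gamma genes between 10.4 and 19.3 stand apart from the other 18.

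Setting the 6 compounds together against Control, 3 members passed an adjusted p of 0.05, and all 3 were classical cadherins that were lower: CDH11, CDH2 and CDH20. CDH2 fell by 17.4%, CDH11 by 18.8% and CDH20 by 33.2%. No member was higher past the threshold. Over all genes 0.35% of 24879 passed in this comparison, and 0.305% passed with lower values. By DESeq2 the same 3 members passed, with 1.29% of the genes given an adjusted p. The test was edgeR's quasi-likelihood F test with Benjamini-Hochberg adjustment over all 24879 genes, as it is for every adjusted p in these results. In bulk RNA, fewer cells that express a gene and less of its RNA per cell cannot be told apart. The treatment solutions held 1% methanol, and the methanol content of Control is not given. A difference shared by the compounds therefore cannot be told apart from one of methanol, here or for the single compounds.

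CDH2, N-cadherin, measured 304, 350 and 300.3 CPM with PFOA, 298, 319 and 351 with PFOS, 323, 315 and 320 with PFDA, and 321, 298 and 387 with PFDS. It measured 316, 283 and 346 CPM with 8:2 FTS and 304, 321 and 333 with 8:2 FTOH, against 407, 389 and 371 in Control. Of the 18 compound libraries 17 were below every Control library, the exception being PFDS replicate 3 at 387 CPM. At least 17 compound libraries lay below every Control library for 1.13% of all tested genes and for 3 members, CDH2, CDH11 and PCDH17. The log2 fold change of the compounds' mean was -0.28 (95% confidence interval -0.40 to -0.15, adjusted p = 0.0301). For single compounds it ranged between -0.31 for 8:2 FTS and -0.21 for PFDS, and none of the 6 passed (adjusted p between 0.178 for PFOA and 0.738 for PFDS).

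CDH11, cadherin-11, measured 176, 185 and 173 CPM with PFOA, 178, 185 and 191 with PFOS, 185, 195 and 182 with PFDA, and 145, 162 and 195 with PFDS. It measured 180, 156 and 182 CPM with 8:2 FTS and 169, 149 and 154 with 8:2 FTOH, against 238, 208 and 198 in Control. Every one of the 18 compound libraries was below every Control library, which held for 0.342% of all tested genes and for no other member. The log2 fold change of the compounds' mean was -0.30 (95% confidence interval -0.42 to -0.18, adjusted p = 0.0156). For 8:2 FTOH alone CDH11 fell by 0.45 on the log2 scale (SE 0.08, 95% confidence interval -0.62 to -0.28, adjusted p = 0.020), and it was the 1 member called in that comparison, where 0.0322% of all genes were. For the other 5 compounds its log2 fold change ranged between -0.35 for PFDS (adjusted p = 0.120) and -0.20 for PFDA (adjusted p = 0.528).

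CDH20, a less abundant type II cadherin, measured 5.74, 6.49 and 6.04 CPM with PFOA, 5.88, 9.23 and 8.8 with PFOS, 6.36, 5.48 and 6.18 with PFDA, and 5.24, 4.51 and 5.21 with PFDS. It measured 6.92, 6.23 and 8.97 CPM with 8:2 FTS and 6.01, 7.46 and 7.63 with 8:2 FTOH, against 9.86, 11.5 and 7.76 in Control. PFDS gave the lowest 3 libraries of any group, while 2 libraries with PFOS and 1 with 8:2 FTS lay inside the Control range. The log2 fold change with PFDS was -0.96 (SE 0.19, 95% confidence interval -1.34 to -0.57, adjusted p = 0.0382), and CDH20 was the 1 member called for PFDS, where 0.0241% of all genes were. Over the compounds' mean it was -0.58 (95% confidence interval -0.85 to -0.31, adjusted p = 0.0343). For the other 5 compounds it ranged between -0.68 for PFDA (adjusted p = 0.268) and -0.31 for PFOS (adjusted p = 0.806).

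**Figure D2:**
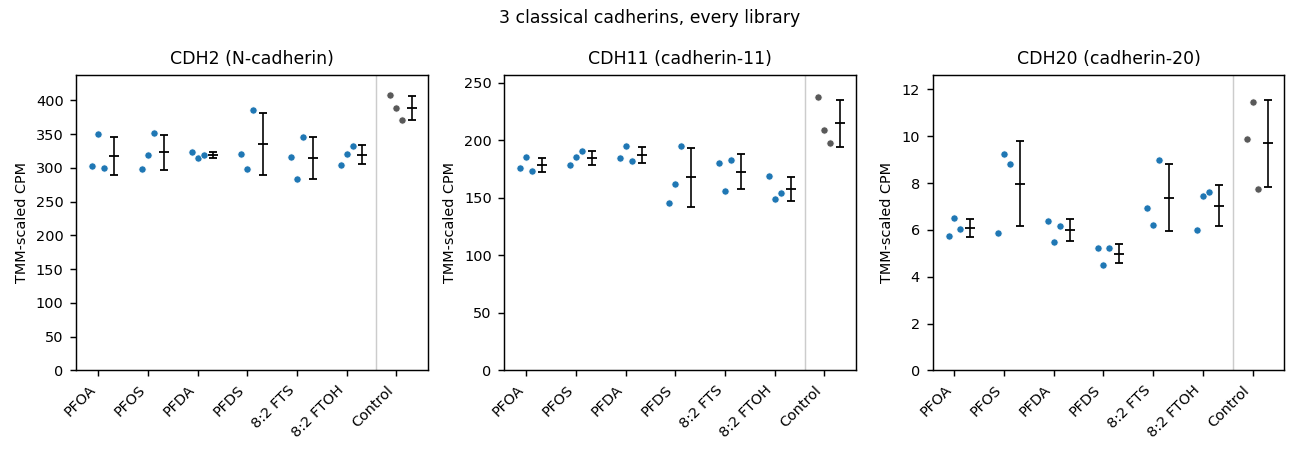
TMM-scaled CPM of CDH2, CDH11 and CDH20 in every library, on axes that start at 0. Points are the 3 libraries of each group, with the compounds in blue and Control in grey, and bars show the mean and SD. CDH11 libraries with a compound lie between 145 and 195 CPM, all below the Control libraries at 198 to 238 CPM.

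The 3 Control libraries stand in all of these comparisons, so the compounds' values are not independent of each other. Without Control replicate 1 or without Control replicate 2, 0 members passed over the compounds' mean, 0 for PFDS and 0 for 8:2 FTOH, and without PFOA replicate 3 only CDH11 passed over the mean. Over the compounds' mean the log2 fold changes without Control replicate 1 were -0.22 for CDH11, -0.24 for CDH2 and -0.57 for CDH20, and without Control replicate 2 they were -0.32, -0.27 and -0.44. The PFDS call was also lost without PFDS replicate 1 or 2 (adjusted p = 0.119 and 0.224) and the 8:2 FTOH call without 8:2 FTOH replicate 2 or 3 (adjusted p = 0.290 and 0.122). Control replicate 3, the library with the largest mitochondrial share, was the lowest Control library for all 3 genes, and the log2 fold changes without it were -0.35, -0.31 and -0.72 in the same order.

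The summed level of the 9 neuronal marker genes lay between 3573 and 4313 CPM in the compound libraries and between 4196 and 4480 CPM in Control. None of the 9 passed for any compound by edgeR, between 3 and 7 of them had an unadjusted p under 0.05 (5.58% to 10.1% of all genes did), and DESeq2 called between 0 and 3. Their sums lay entirely below Control with PFOS, PFDA, 8:2 FTS and 8:2 FTOH. None of the 9 averaged under 1 CPM. Sums of the 13 adrenergic markers (3735 to 4949 CPM with a compound, 4118 to 4593 CPM in Control) and of the 13 mesenchymal neuroblastoma markers (402 to 547 CPM, against 465 to 507 CPM in Control) overlapped, although the adrenergic sum with PFOA, at 3735 to 4111 CPM, lay below Control. An unadjusted p under 0.05 was found for 1 to 3 adrenergic and 1 to 2 of 11 tested mesenchymal markers per compound. DESeq2 called 1 adrenergic marker each with PFOA, PFDS and 8:2 FTOH and 0 mesenchymal ones. The largest part of the mesenchymal sum was TWIST1, at a mean of 283 CPM over the 21 libraries. PRRX1 and YAP1 averaged 0.00814 and 0.0614 CPM, and the other genes of that list between 1.2 and 67.6 CPM. The part of cell state in the cadherin result was not tested.

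The remaining 6 tested classical cadherins did not pass in any comparison. CDH24, the second type II cadherin by CPM per kb, averaged between 24.9 ± 3.38 CPM with 8:2 FTOH and 33.1 ± 3.53 CPM with PFDS, against 29.4 ± 2.39 CPM in Control (SD, n = 3). Its compound and Control libraries overlapped for all 6 compounds. CDH3, CDH15 and CDH4 stayed between 0 and 3.07 CPM in every library, where a change of 2-fold lies within their intervals for at least 1 compound. Over the compounds' mean the median log2 fold change of the 9 tested classical cadherins was -0.03, against 0.00 over all tested genes, and 5 of the 9 were negative.

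The sum of CPM over the classical cadherins was 537 ± 36.4 CPM with PFOA, 553 ± 33 with PFOS, 549.9 ± 3.41 with PFDA, 549 ± 68.3 with PFDS, 532 ± 47 with 8:2 FTS and 516.5 ± 6.63 with 8:2 FTOH, against 650.2 ± 41.4 CPM in Control (SD, n = 3 each). CDH2 and CDH11 make up most of this sum. Solitary protocadherins summed to between 456 and 553 CPM with a compound and to between 491 and 549.8 CPM in Control. Clustered protocadherins summed to between 528 and 641 CPM with a compound and to between 587 and 605 CPM in Control. The compound libraries surround the Control range for both protocadherin branches, and 17 of 18 lie below it for the classical cadherins. Within the solitary branch the sum of the delta-2 genes, most of it PCDH17 and PCDH18, also lay below every Control library in 17 of 18 compound libraries (83.9 to 129 CPM with a compound, 119 to 130.4 CPM in Control). Sums of the delta-1 genes overlapped, at 349.5 to 441 CPM with a compound and 364 to 413 CPM in Control.

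**Figure D3:**
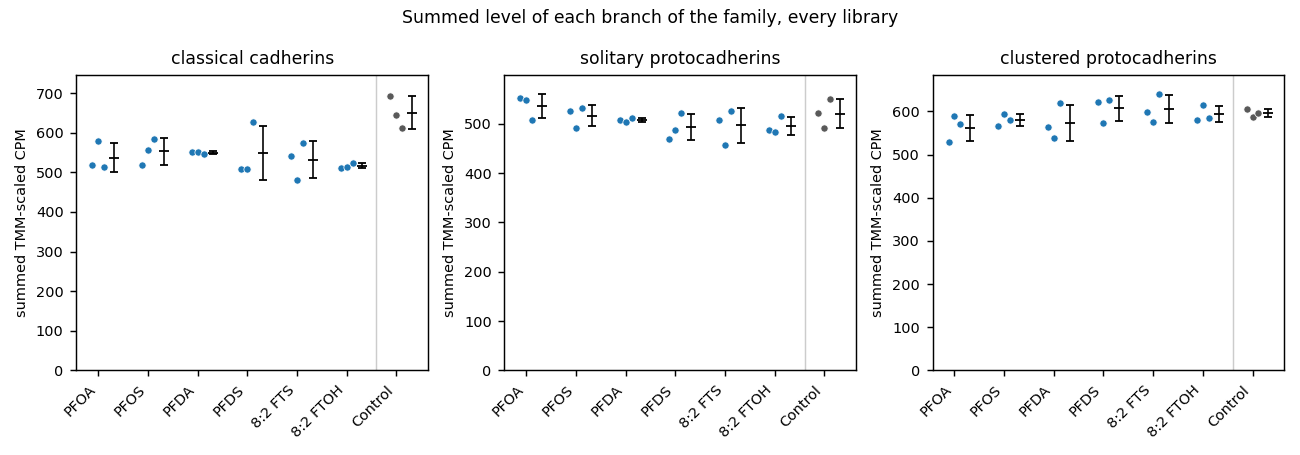
Summed TMM-scaled CPM of the 18 classical cadherins, 13 solitary protocadherins and 53 clustered protocadherins in every library, with the mean and SD beside each group. Classical cadherins sum to 481 to 628 CPM with a compound and 612 to 694 CPM in Control, while the protocadherin sums overlap.

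The 2 tested other cadherins are CDH23, the partner of PCDH15 in the tip link of hair cells, and CDH26. CDH23 averaged 15.7 ± 1.41 CPM with 8:2 FTOH and 15.4 ± 0.743 CPM with PFDA, against 12.9 ± 1.03 CPM in Control, and for both compounds all 3 libraries were above Control. Neither difference passed (adjusted p = 0.727 and 0.678). CDH26 ranged between 0.194 and 2.40 CPM over all libraries, and its libraries overlapped Control for each of the 6 compounds. CDH17, the intestinal cadherin, had at most 1.12 CPM and was not tested.

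No solitary protocadherin passed in any of the 15 tests by edgeR, nor by DESeq2 where it gave an adjusted p. PCDH17, a delta-2 protocadherin that acts in axon growth and synapse formation, came closest. It measured 60.6, 72 and 62.2 CPM with PFOA, 68.9, 64.3 and 69.0 with PFOS, 69.99, 66.7 and 69.2 with PFDA, and 41.6, 60.9 and 79.7 with PFDS. It measured 69.7, 65.6 and 67.5 CPM with 8:2 FTS and 65, 64.5 and 69.2 with 8:2 FTOH, against 86.2, 72.3 and 78.8 in Control. PFDS replicate 3 at 79.7 CPM was the only compound library inside the Control range. The log2 fold change of the compounds' mean was -0.26 (95% confidence interval -0.47 to -0.06, adjusted p = 0.341). For PFDS alone the adjusted p was 0.692 with all libraries. Without PFDS replicate 3, PCDH17 passed both over the mean and for PFDS. That fit leaves out the 1 compound library that lay inside the Control range, so its outcome is no support for a difference.

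PCDH1, a delta-1 protocadherin also known from airway epithelium, measured 55.6, 49.8 and 51.5 CPM with PFDS, against 40.6, 41.9 and 44.2 in Control. The groups did not overlap, but the log2 fold change of 0.31 (SE 0.09, 95% confidence interval 0.13 to 0.49) gave an adjusted p of 0.399. PCDH9, the most abundant protocadherin by CPM, averaged between 325 ± 6.82 CPM with PFDS and 375 ± 25.7 CPM with PFOA, against 343 ± 23.4 CPM in Control (SD, n = 3). Its interval over the compounds' mean and for each compound lay within 1.5-fold of no change. PCDH18 averaged 39.1 ± 4.28 CPM with 8:2 FTS, against 45 ± 6.85 CPM in Control (adjusted p = 0.667). PCDH15 averaged 1.11 ± 0.493 CPM with PFDS, against 2.02 ± 0.317 CPM in Control, without overlap (adjusted p = 0.844). PCDH10, near the floor, averaged 0.249 ± 0.307 CPM with PFDS, against 0.670 ± 0.385 CPM in Control (log2 fold change -1.45, SE 0.73, adjusted p = 0.888). Over the compounds' mean the 8 tested solitary protocadherins had a median log2 fold change of -0.11, with 6 of 8 negative.

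None of the 51 tested clustered protocadherins passed in any of the 15 tests by edgeR, nor by DESeq2 where it gave an adjusted p, and over the compounds' mean 2 had an unadjusted p under 0.05, as did 9.98% of all genes. Their median log2 fold change over the compounds' mean was 0.00, the same to this precision as over all tested genes, with 25 of 51 negative. By array the medians were 0.00 for alpha (7 of 14 negative), 0.00 for beta (7 of 15) and 0.00 for gamma (11 of 22). For single compounds the median of the 51 ranged between -0.03 with PFOA, where 30 were negative, and 0.08 with 8:2 FTS, where 15 were negative. All tested genes had medians between 0.00 and 0.01 in these comparisons.

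The 3 gamma genes of highest level had their lowest group mean with PFOA. There, PCDHGB7 measured 39.6, 49.3 and 51.1 CPM, against 56.2, 59.6 and 58.6 in Control. PCDHGC3 measured 50.7, 61 and 53 CPM with PFOA, against 64.7, 62.8 and 64.4 in Control, and PCDHGA7 measured 30.7, 37.6 and 35.6 CPM, against 40.4, 39.2 and 43.9 in Control. All 3 groups of PFOA libraries lay below Control, with log2 fold changes of -0.31, -0.22 and -0.25 in that order. None passed (adjusted p = 0.295, 0.405 and 0.380). With PFDS the same 3 genes overlapped Control, at 59.6 ± 5.17 CPM for PCDHGB7 against 58.1 ± 1.76 CPM in Control. Splicing onto shared constant exons means that these counts come from variable exons only, and unspliced transcripts of a gene upstream that cross a variable exon could not be separated.

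PCDHB2, one of the weakest beta genes, had 5 to 36 counts per library. It measured 1.2, 0.896 and 0.767 CPM with PFOA, 0.517, 1.05 and 0.894 with PFOS, 0.256, 0.375 and 1.04 with PFDA, and 1.44, 0.592 and 1.4 with PFDS. It measured 1.11, 0.846 and 0.683 CPM with 8:2 FTS and 1.24, 0.868 and 1.16 with 8:2 FTOH, against 0.533, 0.419 and 0.333 in Control. Of 18 compound libraries 15 were above every Control library, which held for 2.29% of all tested genes and for no other member. Its log2 fold change over the compounds' mean was 1.03 with a wide interval (0.21 to 1.85, adjusted p = 0.349). Only 56.2% of its exon bases are not shared, its partner being PCDHB1-AS1, and 21% of its 50-base words occur in other genes.

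C-type gamma gene PCDHGC5 averaged 4.88 ± 0.958 CPM with 8:2 FTS, against 3.25 ± 0.727 CPM in Control (log2 fold change 0.57, SE 0.23, adjusted p = 0.502). PCDHA7 averaged 3.37 ± 0.832 CPM with PFOS, against 2.15 ± 0.341 CPM in Control, without overlap (log2 fold change 0.62, SE 0.27, adjusted p = 0.688). PCDHA12 measured 5.57, 6.06 and 5.25 CPM with PFDS, against 7.06, 7.46 and 7.09 in Control, also without overlap (adjusted p = 0.905). PCDHB6 averaged 20.04 ± 3.79 CPM with PFOA, against 23.9 ± 2.20 CPM in Control (adjusted p = 0.516). The leading alpha and beta genes PCDHAC2 and PCDHB3 overlapped Control, at 32.9 ± 0.731 and 30.6 ± 0.909 CPM, for all compounds except PCDHAC2 with 8:2 FTOH, where it measured 30.5, 32.01 and 25.9 CPM.

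**Figure D4:**
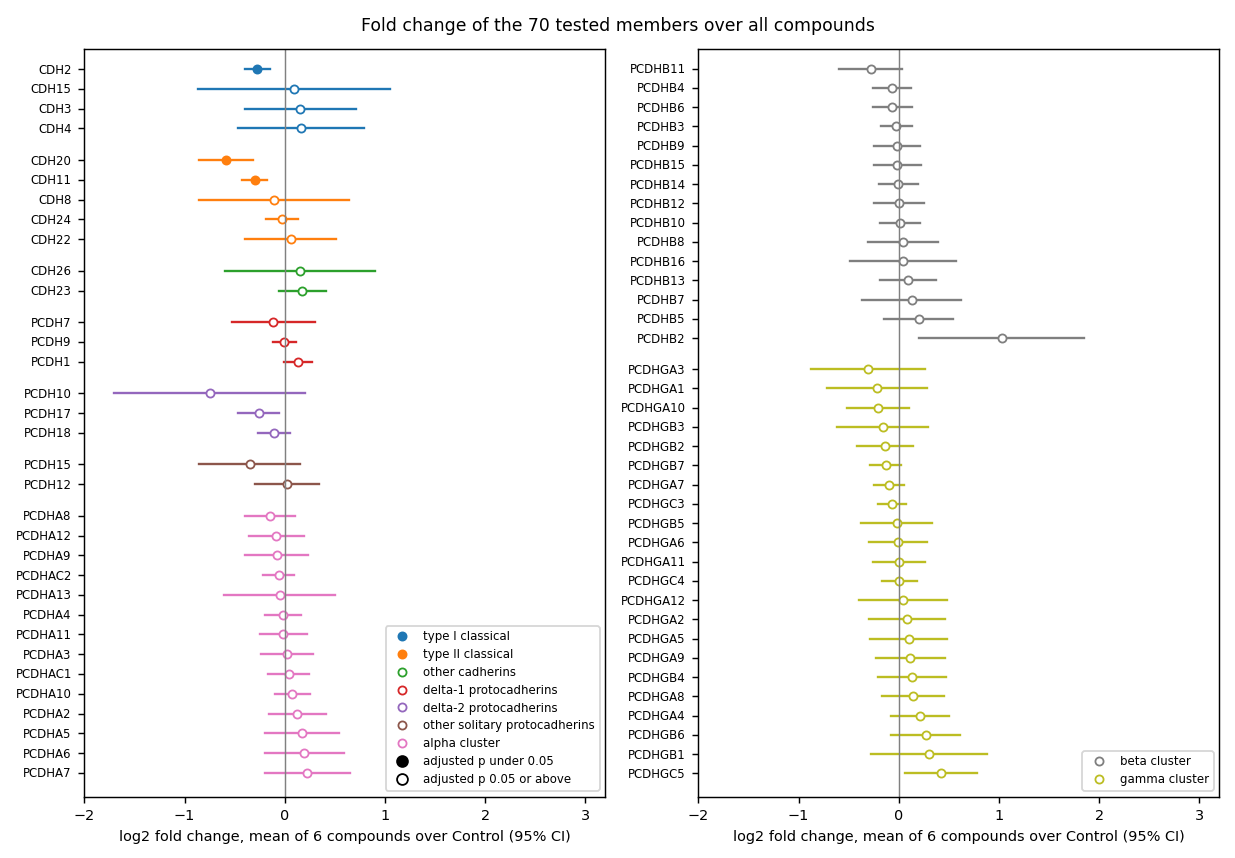
Log2 fold change of the mean of the 6 compounds over Control with its 95% confidence interval, for the 70 tested members grouped by kind and ordered within each. Filled points passed an adjusted p of 0.05. CDH11, CDH2 and CDH20 are filled at -0.30, -0.28 and -0.58, and the protocadherins are open.

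Compound by compound, 0 members passed for PFOA, PFOS, PFDA and 8:2 FTS, where 0.0322%, 0.0241%, 0.00804% and 0.0844% of all genes did. Before adjustment, p was under 0.05 for 10 of the 70 members with PFOA, 4 with PFOS, 3 with PFDA, 8 with PFDS, 5 with 8:2 FTS and 7 with 8:2 FTOH. The corresponding share of all tested genes was 10.1%, 6.83%, 8.43%, 5.58%, 7.77% and 7.83%, against 14.3%, 5.71%, 4.29%, 11.4%, 7.14% and 10% of the members. By DESeq2 CDH20 passed for PFDS, as did 0.193% of the genes given an adjusted p, and CDH11 for 8:2 FTOH, as did 0.354%. For PFOA, PFOS, PFDA and 8:2 FTS 0 members passed by DESeq2, against 2.11%, 0.0971%, 1.85% and 0.239% of the genes given an adjusted p, which 62 members lacked with PFOA and 67 with PFDA. The 95% interval lay within 2-fold of no change for between 59 and 62 of the 70 members for each compound, and for 67 over the compounds' mean. It lay within 1.5-fold for between 36 and 41.

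Libraries of a compound lay entirely above Control for 5 members with PFOA, 1 with PFOS, 2 with PFDA, 5 with PFDS, 4 with 8:2 FTS and 5 with 8:2 FTOH. Over all tested genes this held for 7.45%, 6.62%, 7.92%, 3.72%, 6.64% and 5.95%. Libraries lay entirely below Control for 9, 5, 4, 5, 4 and 7 members in the same order, and for 8.46%, 7.41%, 7.85%, 4.53%, 7.17% and 6.98% of all tested genes. Of the 70 members tested, the share above was 7.14%, 1.43%, 2.86%, 7.14%, 5.71% and 7.14%, and the share below was 12.9%, 7.14%, 5.71%, 7.14%, 5.71% and 10%. The members' share was larger than that of all genes below Control with PFOA, PFDS and 8:2 FTOH and above Control with PFDS and 8:2 FTOH. It was smaller below Control with PFOS, PFDA and 8:2 FTS and above Control with PFOA, PFOS, PFDA and 8:2 FTS. The counts of members are small, and whether the shares differ was not tested.

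**Figure D5:**
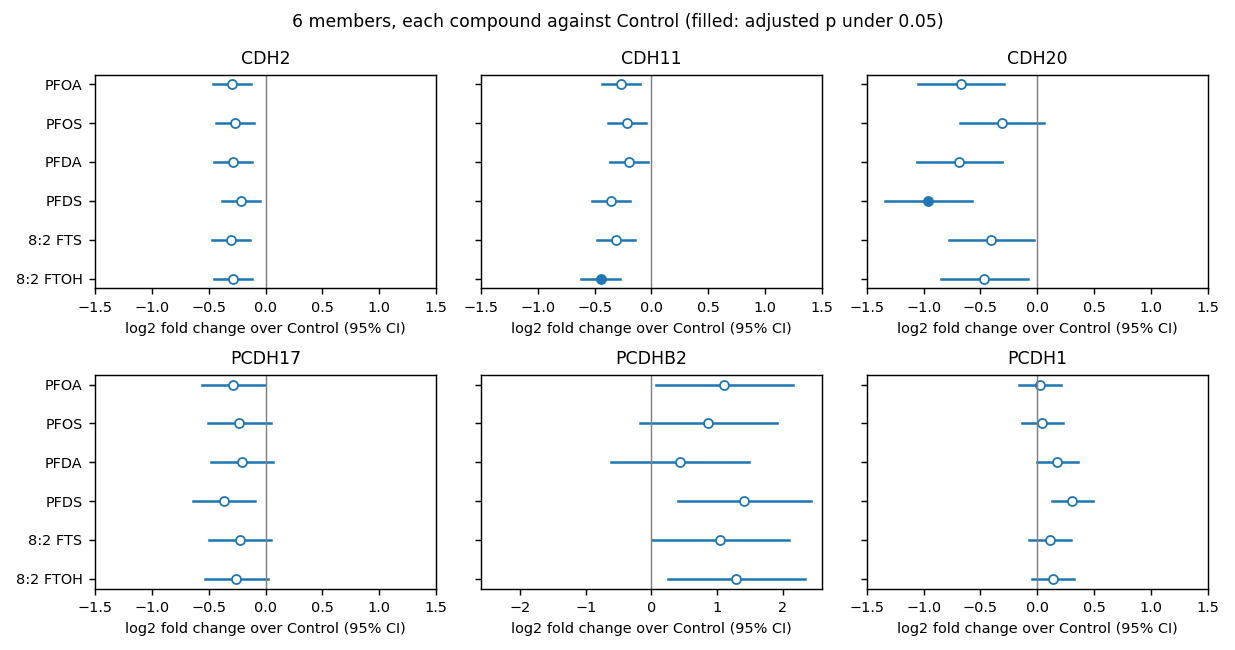
Log2 fold change over Control with its 95% confidence interval for 6 members and each compound, on scales that are wider for PCDHB2. Filled points passed an adjusted p of 0.05, namely CDH11 with 8:2 FTOH at -0.45 and CDH20 with PFDS at -0.96. CDH2 lies between -0.31 and -0.21 for all 6 compounds.

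Between compounds at the same dose and time, 7 pairs were compared and 0 members passed in any by edgeR (adjusted p at least 0.890) or by DESeq2. Of all genes 0.00402% passed by edgeR for PFDS over PFOS and 0% in the other 6 pairs. By DESeq2 0.00804% passed for PFDS over PFOS, 0.0121% for 8:2 FTS over 8:2 FTOH, 0.00402% for 8:2 FTS over PFDS and 0% in the other 4. An unadjusted p under 0.05 was found for 1 member with PFDA over PFOA (2.93% of all genes), 8 with PFDS over PFOS (4.37%), 3 with PFOS over PFOA (4.9%) and 3 with PFDS over PFDA (5.59%). It was found for 1 with 8:2 FTS over 8:2 FTOH (3.26%), 3 with 8:2 FTS over PFOS (2.86%) and 7 with 8:2 FTS over PFDS (4.1%). The smallest p before adjustment was that of CDH20 for PFDS, the longer sulfonic acid, over PFOS, the shorter one. CDH20 averaged 4.99 ± 0.412 CPM with PFDS and 7.97 ± 1.82 CPM with PFOS, a log2 difference of -0.65 (95% confidence interval -1.04 to -0.25, adjusted p = 0.999). For the carboxylic acids the same step in chain length, PFDA over PFOA, gave -0.01 (95% confidence interval -0.40 to 0.38). The difference between these chain-length steps was -0.63 (95% confidence interval -1.19 to -0.08) and did not pass in a further test of its own (adjusted p = 0.998). CDH20 was picked for its PFDS over PFOS difference, which enters this test too, so the interval is not independent of that choice. Other members had a smaller unadjusted p in this test. CDH20 averaged 7.37 ± 1.43 CPM with 8:2 FTS and 4.99 ± 0.412 CPM with PFDS, a log2 difference of 0.55 (95% confidence interval 0.15 to 0.95, adjusted p = 0.999).

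For CDH2 the 7 pair differences lay between -0.09 and 0.07 on the log2 scale. The interval that reached farthest from no difference, for 8:2 FTS over PFDS, ran from -0.26 to 0.08. For CDH11 they lay between -0.16 for PFDS over PFDA and 0.13 for 8:2 FTS over 8:2 FTOH (95% confidence interval -0.03 to 0.30). The intervals for CDH2 and CDH11 all lie within 1.5-fold of no difference, which does not show that the compounds act alike. Across all 7 groups at once 0 members passed by edgeR, where 7 had an unadjusted p under 0.05 (5.91% of all genes did) and 0.0322% of all genes passed. By DESeq2 CDH11 and CDH20 passed in that test, with 0.69% of the genes given an adjusted p.

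Genes on lists of cadherin partners did not pass by edgeR, nor by DESeq2 where it gave an adjusted p, for any compound or over the mean. With PFDA it gave none for 6 of 8 catenins, 7 of 10 adaptors, 9 of 11 shedding genes, 4 of 6 repressors, 8 of 18 chromatin factors, 9 of 13 signalling partners and 9 of 16 other superfamily genes. Over the compounds' mean, 0 of 8 tested catenin genes, 0 of 10 adhesion complex adaptors, 0 of 11 genes of cadherin shedding and turnover and 0 of 6 SNAI, ZEB and TWIST repressors passed. The same held for 0 of 18 chromatin factors of the protocadherin clusters, 0 of 13 protocadherin signalling partners and 0 of 16 other cadherin superfamily genes, while none of 7 desmosomal cadherins passed the filter. Before adjustment p was under 0.05, with lower values, for 2 of 8 catenins, 1 of 10 adaptors, 2 of 11 shedding genes and 1 of 6 repressors. It was so for 5 of 18 chromatin factors, 0 of 13 signalling partners and 1 of 16 other superfamily genes, and for 5.67% of all genes. Whether these shares differ was not tested. With higher values p was under 0.05 for 1 of 13 signalling partners and 2 of 16 other superfamily genes, against 4.3% of all genes. These were the kinase gene PTK2B at 13.2 ± 1.57 CPM with a compound and 10.7 ± 0.645 CPM in Control, and the giant atypical cadherins FAT2 (adjusted p = 0.428) and FAT1 at 495 ± 69.8 CPM with a compound and 413 ± 90.1 CPM in Control (adjusted p = 0.465). The neuronal alpha-catenin CTNNA2, which links cadherins to actin, averaged 109.5 ± 7.33 CPM over the 18 compound libraries and 125.4 ± 1.82 CPM in Control (log2 fold change -0.20, adjusted p = 0.152). The junction scaffold TJP1 averaged 162 ± 7.07 CPM with a compound and 181 ± 7.72 CPM in Control (log2 fold change -0.16, adjusted p = 0.199). NIPBL, which loads cohesin, averaged 214 ± 10.8 CPM with a compound and 237 ± 9.6 CPM in Control (log2 fold change -0.15, adjusted p = 0.245). ZEB1, a repressor of E-cadherin, averaged 135 ± 8.06 CPM with a compound and 147 ± 9.36 CPM in Control (adjusted p = 0.446).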

How the data were processed

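RNA-seq of 21 libraries was analysed from the authors' deposited tables. Per the submitters' processing notes, reads were checked with FastQC and MultiQC, aligned with HISAT2 to hg38, handled with SAMtools and counted with featureCounts, and DESeq2 was used. The deposited table holds raw counts per gene, made with featureCounts 2.0.1 per the file headers, without strand or multi-overlap options although the kit was stranded, so overlapping and antisense genes share or lose reads. Its deposited length column (another quantity, in exon bases) was used with the exon coordinates of the file to find unshared exon bases. The authors' normalized table, a signal, lacks Control replicate 3 and 8:2 FTOH replicate 3. All of its deposited values (100%) were raw counts over 1 factor per library within 0.01 reads, so it was used in no test.

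Genes were filtered with filterByExpr, TMM-scaled and tested with edgeR 4.0.16 quasi-likelihood F tests (robust, all 21 libraries in 1 fit, common biological coefficient of variation 0.112) in R 4.3.3, with Benjamini-Hochberg adjustment over 24879 genes at 0.05, in 15 tests. Intervals are 95%. Depth limits precision. Intervals come from the fit and cover the spread between libraries as well as counting error. Floors (3 counts) cover counting error only. Alternatives were DESeq2 1.42.0, other scalings and filters, a replicate term and leaving out libraries. Tables and figures used Python 3.11.15, pandas 2.3.3 and matplotlib 3.10.9. In data simulated for PFOA against Control over 24879 genes, edgeR recovered 2, 17, 20, 28 and 29 of 40 genes planted at 1.25, 1.5, 2, 3 and 4-fold.

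The members, gene lists, tests and promoter words were chosen with earlier results of these data known. Members named were those past the threshold in any test, the 3 of highest level and 2 of smallest p per kind, the 3 of smallest p per compound, and partner genes of smallest p. Members that were not tested, and PCDHA2, PCDHA8, PCDHB10, PCDHGA9, PCDHGB2, PCDHGB4 and PCDHGC4, lie outside this rule and were named for sequence or level after their values were seen.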

Additional observations from a re-analysis of the deposited data

How the results depend on the processing

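Direction was followed for named members with an unadjusted edgeR p under 0.05 for a compound or over the compounds' mean. None of these turned under any alternative. Direction was not checked for other members, for the medians of each kind or for the compound pairs. The medians of each kind were followed in size only, for each compound and over the compounds' mean. In 59 cases over the alternatives a median log2 fold change moved by more than the SD of that kind's median level between compound libraries. Over the compounds' mean, scaling by library size only left 1 member past the threshold (CDH11). With no filter on low counts the members called were 1 for PFOA, 3 for PFDS, 2 for 8:2 FTS, 2 for 8:2 FTOH and 3 for any difference among the groups. The DESeq2 test gave 2 for any difference, and fitting only the groups compared gave 0 for PFDS. Leaving out Control replicate 3 and 8:2 FTOH replicate 3 together gave 1 for PFOA (CDH20). Leaving out the 4 libraries of highest mitochondrial share, an alternative chosen after seeing the data, gave 3 for PFOA, 1 for 8:2 FTS and 2 for any difference, and still 3 over the compounds' mean. Leaving out each library in turn gave between 0 and 1 for PFOA, 0 and 3 for PFDS, 0 and 1 for 8:2 FTOH, 0 and 4 over the mean and 0 and 2 for any difference, and 0 elsewhere. PFDS had 2 without Control replicate 3 and 3 without PFDS replicate 3. The cause of these shifts was not tested. Of 29 alternatives over the mean, CDH11 passed in 27, CDH2 in 25 and CDH20 in 19, with log2 fold changes from -0.35 to -0.22, from -0.31 to -0.23 and from -0.72 to -0.44. For single compounds CDH11 ran from -0.27 to -0.13 with PFOS and from -0.28 to -0.11 with PFDA over 15 alternatives each, none of them past the threshold, and passed in 1 of 15 with PFOA, 3 with PFDS and 2 with 8:2 FTS. The replicate block gave 1 member for PFDS, 1 for 8:2 FTOH, 3 over the mean and 0 in the other tests, as without it. No pairing by the shared numbers was detected, which does not exclude it. Deviations of same-numbered libraries correlated between -0.12 and 0.132, and those of other pairs between -0.129 and 0.13. Of 21 libraries 8 correlated best with a library of their own number. Depth differs between groups: compound libraries had a median of 13570922 counts, and each Control library had at least 22179910.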
